A study of Homo sapiens with 6 samples.

Results

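The aryl hydrocarbon receptor set comprised 8 genes: the receptor AHR, its dimerization partner ARNT, its repressor AHRR, and the target genes CYP1A1, CYP1B1, TIPARP, NQO1 and ALDH3A1. Each was found by its name in the annotation of the gene table, which holds 54644 rows in all, and the set was chosen on the rise of CYP1A1 in these libraries, so that CYP1A1 is described here without a test. RNA was sequenced from SKBR3, an established line of HER2-amplified epithelial breast adenocarcinoma cells. The Con group carried the empty lentiviral pLVX vector and the CTTN group carried pLVX with the cDNA of cortactin, an actin-binding protein, and in both groups stably infected cells were selected with puromycin. Each group had 3 libraries, named as biological replicates, and whether they came from separate infections is not given in the sources used here. No receptor ligand is named in the labels.

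AHR is a transcription factor of the bHLH-PAS family that rests in the cytosol with the chaperone HSP90 and its cochaperones. Binding of a ligand, such as a dioxin, a polycyclic aromatic hydrocarbon or a tryptophan metabolite, sends it to the nucleus, where it pairs with ARNT and binds DNA elements with the core GCGTG. Its best known targets are the cytochrome P450 enzymes of family 1, which oxidize the ligands and estrogens, while AHRR and TIPARP are targets that feed back on the receptor. NQO1 and ALDH3A1 belong to the wider gene battery of the receptor, and NQO1 is also a classical target of the stress factor NRF2.

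Start-site windows of 300 bases, from 250 bases before to 50 bases after the first position of the transcript, came from RefSeq (GRCh38.p14) and were present for 6 of the 8 genes, 9 windows in all. The 3 windows shown are those of the gene that chose the set, of the receptor and of its partner. Capitals mark the core GCGTG on the strand shown.
CYP1A1, chr15:74725479-74725778, minus strand: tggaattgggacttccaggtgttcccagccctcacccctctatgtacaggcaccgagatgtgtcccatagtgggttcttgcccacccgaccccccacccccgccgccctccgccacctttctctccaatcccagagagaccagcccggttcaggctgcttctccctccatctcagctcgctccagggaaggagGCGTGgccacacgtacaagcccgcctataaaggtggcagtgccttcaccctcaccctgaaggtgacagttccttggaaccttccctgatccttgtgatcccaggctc
AHR, chr7:17298402-17298701, plus strand: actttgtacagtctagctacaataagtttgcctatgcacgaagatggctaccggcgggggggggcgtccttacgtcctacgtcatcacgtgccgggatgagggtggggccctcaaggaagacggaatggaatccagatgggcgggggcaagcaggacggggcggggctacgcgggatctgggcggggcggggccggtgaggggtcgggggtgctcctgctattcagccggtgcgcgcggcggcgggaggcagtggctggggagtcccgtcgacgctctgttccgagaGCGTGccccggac
ARNT, chr1:150876550-150876849, minus strand: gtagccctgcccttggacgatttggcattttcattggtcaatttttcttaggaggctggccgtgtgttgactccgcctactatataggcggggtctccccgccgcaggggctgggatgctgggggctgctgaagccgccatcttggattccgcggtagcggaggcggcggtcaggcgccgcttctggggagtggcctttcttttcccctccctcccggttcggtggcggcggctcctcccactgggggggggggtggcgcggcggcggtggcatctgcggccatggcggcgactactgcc
The search covered both strands. CYP1A1 held 1 core, which began 57 bases before the start site, and AHR held 1 core 37 bases after it. ARNT held none. Among the windows not shown, the first of 2 for AHRR held 1 core and the second 2, the first of 3 for TIPARP held 2 on the opposite strand and the other windows none, and NQO1 held 1 on the opposite strand 1 base after the start site. A core was thus present in 6 of the 9 windows and in 5 of the 6 genes, beside 36.5% of the 35116 RefSeq windows of this length and 40.6% of the genes they belong to, as a description with no test. The longer form TNGCGTG, which contains the core, was present in 5.51% of all windows and in 1 window each of AHRR and NQO1. The antioxidant element core TGACNNNGC, to which NRF2 with small MAF proteins binds, was present in 13.3% of all windows and among the 9 windows only in that of ARNT. Sequence outside the windows was not searched, so elements farther from the start sites would not be seen.

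Before any comparison, the libraries were checked against their labels. The fragments assigned to genes ranged from 34887079 to 41279658 per library. ERBB2, the amplified oncogene of this line, was at 1640 to 1790 FPKM (fragments scaled by transcript length and library depth). KRT8 was at 1450 to 2510 and EPCAM at 132 to 177. CDH1, the epithelial cadherin, was as low as VIM, at 0.0501 to 0.244, and ESR1 was at 0.128 to 0.398. VIM, PTPRC and PECAM1 stayed at or below 0.251 and COL1A1 at 2.83 to 4.26. CTTN was at 263, 329 and 180 FPKM in CTTN 1 to 3 and at 104, 108 and 108 in Con 1 to 3, which matched the labels in every library. CTTN 1 and CTTN 3 stood apart from the other libraries by transcript length. Genes with transcripts over 8 kb had a median log2 difference from the Con mean of -0.53 in CTTN 1 and -0.90 in CTTN 3, and genes under 1 kb one of 0.38 and 0.86. In CTTN 2 the same medians were -0.00062 and 0.014. Con libraries stayed between -0.0876 and 0.0634 in every class. The pattern thus sets apart 2 of the 3 CTTN libraries. The median of all genes in the same length class was below 0 for AHR, CYP1B1 and ARNT and above 0 for the shorter NQO1. Results for those of the 8 genes that had a row of their own and enough counts are therefore also given from a fit with an offset for transcript length and from CTTN 2 alone against the 3 Con libraries, both chosen after the pattern was seen. In the latter the single CTTN library is assumed to vary like the Con libraries.

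**Figure D1:**
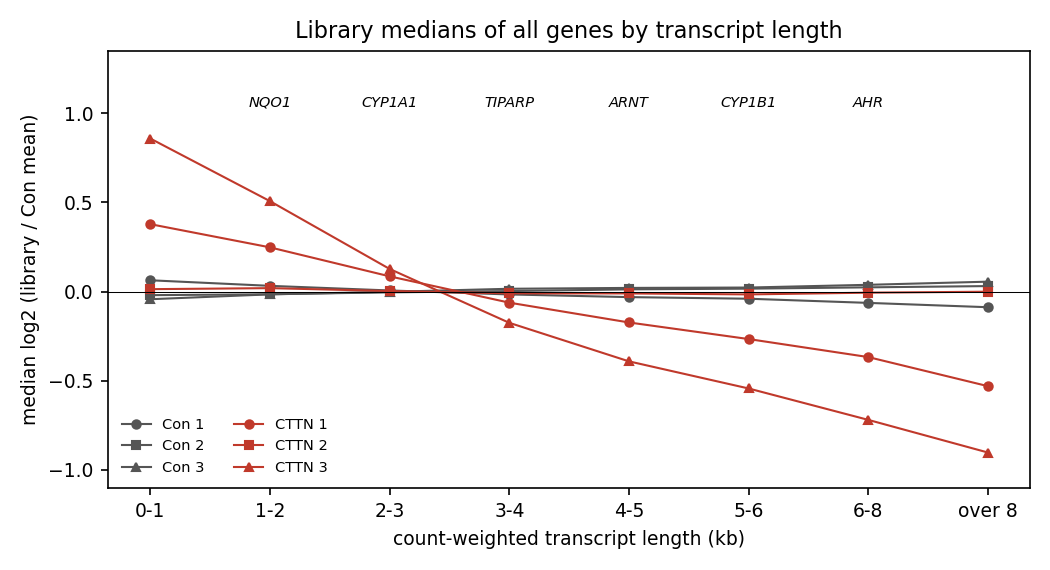
Median log2 ratio of each library to the Con mean (vertical axis) for all genes with a mean count of at least 100, by count-weighted transcript length in kb (horizontal axis), with grey lines for the 3 Con and red lines for the 3 CTTN libraries and gene names above the class each belongs to. CTTN 1 and CTTN 3 run from 0.378 and 0.858 in the shortest class to -0.53 and -0.902 in the longest, and CTTN 2 lies with the Con libraries.

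CYP1A1, the archetypal inducible P450 of the receptor, was about 3 times as high in the CTTN libraries. Its scaled count, that is the deposited value of fragments divided by a library factor, was 237, 236 and 232 in CTTN 1 to 3 and 76.3, 75.9 and 74.7 in Con 1 to 3. All CTTN libraries lay far above all Con libraries, and both groups were tight. Before scaling these were 229, 242 and 209 fragments (95% exact Poisson intervals 200 to 261, 212 to 274 and 182 to 239) against 74, 87 and 78 (58.1 to 92.9, 69.7 to 107 and 61.7 to 97.3), so the spread within each group was inside counting error, which is the only error that the intervals cover. The log2 difference was 1.63 ± 0.11 (SE, 3 libraries per group), a 3.1-fold difference. With a transcript length of 2501 bases, CYP1A1 falls in the class of 2 to 3 kb, whose median log2 difference was 0.071. With the length offset the difference was 1.58, and in CTTN 2 alone 1.64. The row lies at chr15:74719542-74725610 (GRCh38) and holds no other gene.

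CYP1B1, the second P450 of the family and an estrogen 4-hydroxylase, was lower in the CTTN libraries. The scaled counts were 2800, 3272 and 2372 in CTTN 1 to 3 and 4799, 5214 and 5165 in Con 1 to 3. The groups did not overlap, and the highest CTTN value was that of CTTN 2, the library without the length pattern. The share of all genes with no overlap is not given here, so non-overlap is a description only, here and below. The group means were 2815 ± 451 and 5059 ± 227 (SD, n = 3 each), a log2 difference of -0.85 ± 0.12 (SE) with an adjusted p of 0.0171 in edgeR's quasi-likelihood test over 14433 genes, of which 4.2% were called. CYP1B1 was the only one of the 5 genes tested in rows of their own, CYP1A1 not counted, that passed. Genes of its length class, 5 to 6 kb, had a median of -0.25. With the length offset CYP1B1 fell by 0.63 ± 0.046 (SE) on the log2 scale (adjusted p = 0.000162), in a fit that called 19% of genes. In CTTN 2 alone it fell by 0.63 (adjusted p = 7.57e-08), where 14.1% of genes were called. Without CTTN 1 the adjusted p was 0.119 (log2 -0.84). Without Con 1, 2 or 3 it was 0.0889, 0.12 and 0.114 (log2 -0.89, -0.83 and -0.84). The threshold was also missed with replicate number as a block (adjusted p = 0.0532) and in limma on log2 FPKM (0.0579 and 0.0631, pseudocounts 0.1 and 1). CYP1B1 passed in DESeq2 (8.6e-07) and in edgeR without CTTN 2 (0.000683) or CTTN 3 (0.00229). The row, at chr2:37923187-38239590, also lists RMDN2-AS1, but 99.8% of its counts were assigned to CYP1B1 transcripts. Since RNA was measured in bulk, fewer cells with a transcript and less of it per cell cannot be told apart, here and below.

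The family 1 enzymes thus lay on opposite sides of the Con libraries in the same 3 CTTN libraries. CYP1B1 was the more abundant of the pair in every library. Its FPKM was 44.1, 45.1 and 41.1 times that of CYP1A1 in Con 1 to 3 and 7.12, 9.93 and 6.01 times in CTTN 1 to 3, a description that includes the rise by which the set was chosen.

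**Figure D2:**
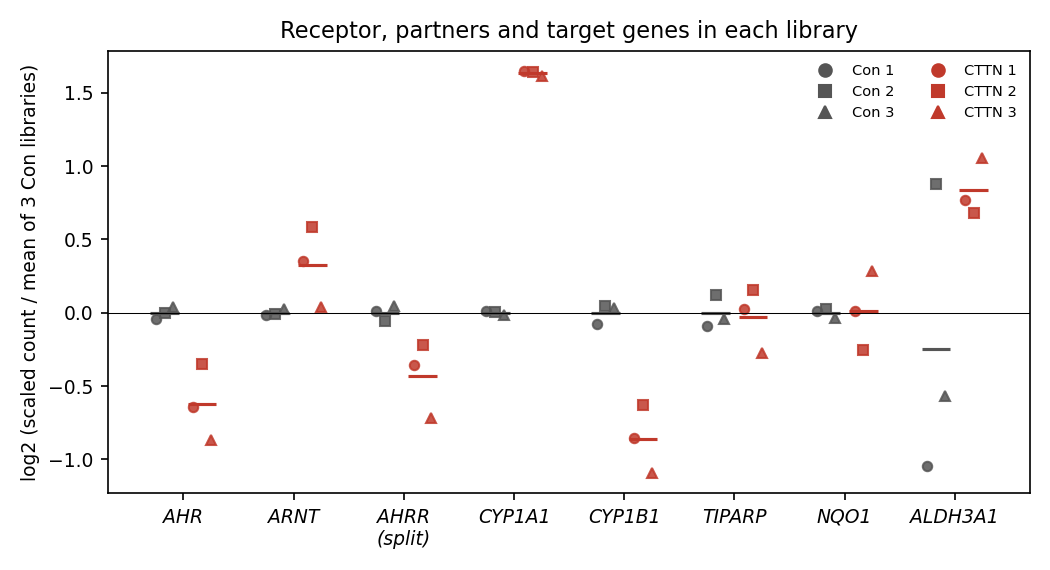
Log2 ratio of each library's scaled count to the mean of the 3 Con libraries (vertical axis) for the 8 genes (horizontal axis), with grey points for Con, red points for CTTN, a symbol per library number and a bar at the group mean of the log2 ratios. CYP1A1 lies at about 1.63 in all CTTN libraries, CYP1B1 and AHR lie below Con in all of them, and ARNT lies above. ALDH3A1 rests on 2 to 9 fragments per library, and AHRR is an estimate from a shared row.

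AHR, the receptor itself, was lower in each CTTN library. Its scaled counts were 1122, 1377 and 959 in CTTN 1 to 3 and 1701, 1753 and 1806 in Con 1 to 3, with no overlap and with CTTN 3 lowest. The means were 1152 ± 211 and 1753 ± 52.3 (SD, n = 3 each) and the log2 difference -0.61 ± 0.13 (SE), with an adjusted p of 0.0537 that missed the threshold of 0.05. At 6229 bases its transcripts are the longest of the set, and genes of 6 to 8 kb had a median of -0.33. With the length offset AHR fell by 0.32 ± 0.053 (SE) on the log2 scale, which passed (adjusted p = 0.00544). In CTTN 2 alone it fell by 0.35. Without an offset AHR passed when CTTN 2 (-0.76, adjusted p = 0.00159) or CTTN 3 (-0.49, adjusted p = 0.0205) was left out. It did not pass without CTTN 1 (adjusted p = 0.213) or without Con 1, 2 or 3 (adjusted p = 0.194, 0.229 and 0.215). It passed in DESeq2 (-0.62, adjusted p = 0.00299) and without the count filter (-0.61, adjusted p = 0.0481). With library totals only, a replicate block or limma it did not (adjusted p = 0.0792 to 0.222). The size of the difference therefore depended on the length term, and its direction was the same in each of these fits. The merged row spans chr7:16916359-17558909 and lists 2 further loci, and 99.3% of its counts were assigned to AHR.

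ARNT, the nuclear partner that AHR shares with the hypoxia-inducible factors, was at 3224, 3786 and 2599 scaled counts in CTTN 1 to 3 and at 2492, 2507 and 2571 in Con 1 to 3. The groups were ordered with no overlap, but CTTN 3 lay just above the highest Con library. The log2 difference was 0.34 ± 0.13 (SE), with means of 3203 ± 594 and 2523 ± 42.3 (SD, n = 3 each), and did not pass (adjusted p = 0.147). Genes of 4 to 5 kb, the class of ARNT at 4775 bases, had a median of -0.18, opposite in sign to ARNT. With the length offset ARNT rose by 0.54 ± 0.053 (SE) on the log2 scale (adjusted p = 0.000548), a 1.45-fold difference, and in CTTN 2 alone by 0.58. With no offset, leaving out CTTN 3 gave 0.47, which passed (adjusted p = 0.0132), and leaving out CTTN 2 gave 0.20, which did not (adjusted p = 0.127). Without CTTN 1 or a Con library the adjusted p was 0.311 to 0.361. The ratio of ARNT to AHR in FPKM was 1.57, 1.58 and 1.72 in Con 1 to 3 and 3.39, 2.77 and 3.44 in CTTN 1 to 3.

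AHRR, which competes with AHR for ARNT, has no row of its own. It is merged at chr5:271621-438291 with PDCD6, a calcium-binding protein gene, and transcripts named AHRR held 371, 408 and 288 of the scaled counts of that row in CTTN 1 to 3 and 479, 456 and 490 in Con 1 to 3. These estimates did not overlap between groups, at 356 ± 61.3 and 475 ± 17.4 (SD, n = 3 each). When all merged rows were split by transcript name, a step added after this row was seen, AHRR had a log2 difference of -0.42 ± 0.14 (SE, adjusted p = 0.127) in a fit that called 3.03% of rows, and PDCD6 one of 0.13 ± 0.10 (adjusted p = 0.392). Most counts named AHRR lay on transcripts of 5362 to 5784 bases, and genes of 5 to 6 kb had a median of -0.25. CTTN 2, the library without the length pattern, lay nearest to Con, and the split values were not fitted with a length offset. The unsplit row had 0.11 ± 0.10 (adjusted p = 0.452), which describes PDCD6 rather than AHRR. The assignment of fragments between overlapping transcripts makes the AHRR values uncertain.

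TIPARP, a mono-ADP-ribosyltransferase that acts on the receptor, was at 738, 805 and 598 scaled counts in CTTN 1 to 3 and at 681, 789 and 703 in Con 1 to 3. The groups overlapped throughout, and the log2 difference was -0.023 ± 0.13 (SE, adjusted p = 0.91). It was 0.064 ± 0.087 (SE) with the length offset and 0.15 in CTTN 2 alone. A difference in this feedback target was not detectable at this spread.

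NQO1, a quinone reductase, was the most abundant transcript of the set. Its scaled counts were 33436, 27768 and 40311 in CTTN 1 to 3 and 33393, 33756 and 32291 in Con 1 to 3. CTTN 2 and CTTN 3 fell on opposite sides of the Con libraries and CTTN 1 among them. The log2 difference was 0.029 ± 0.14 (SE, adjusted p = 0.891), while genes of its length class, 1 to 2 kb, had a median of 0.26. It was -0.13 with the length offset (adjusted p = 0.181), -0.12 without CTTN 3 (adjusted p = 0.436) and -0.26 in CTTN 2 alone, so that the sign of the estimate depended on the libraries and the scaling used.

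ALDH3A1, an aldehyde dehydrogenase classically inducible by dioxin, was near the limit of detection with 7, 7 and 8 fragments in CTTN 1 to 3 and 2, 9 and 3 in Con 1 to 3. The intervals overlapped, from 2.81 to 15.8 fragments in the CTTN libraries and from 0.242 to 17.1 in the Con libraries (95% exact Poisson). It was removed by the filter on low counts and was not tested.

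**Figure D3:**
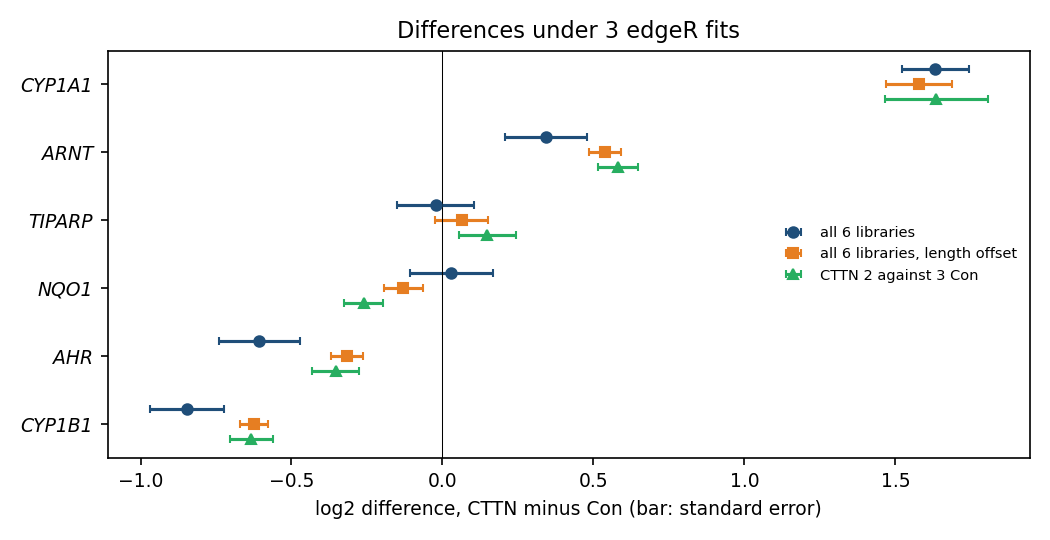
Log2 difference, CTTN minus Con (horizontal axis), with standard error bars for 6 genes (vertical axis) in the fit of all 6 libraries, in the same fit with a length offset, and in CTTN 2 against the 3 Con libraries. CYP1A1 stays between 1.577 and 1.635, CYP1B1 and AHR stay below 0 and ARNT above 0 in each fit, whereas the values of TIPARP and NQO1 change sign between fits.

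Per length, the order of levels in the Con group was NQO1 (614 ± 13.8 FPKM, SD, n = 3), CYP1B1 (34.5 ± 1.31), ARNT (15.4), AHR (9.48), TIPARP (6.12), CYP1A1 (0.796 ± 0.0623) and ALDH3A1 (0.109). AHRR could not be placed because its row is shared. Every neighbouring pair in that order was separated in all 3 Con libraries. In the CTTN group, NQO1 (639 ± 115), CYP1A1 (2.53 ± 0.184) and ALDH3A1 kept their places in each library. CYP1B1 was at 18.8, 23.0 and 15.9 FPKM and ARNT at 18.1, 24.3 and 14.8 in CTTN 1 to 3, so that these neighbours no longer differed beyond their spread. AHR, at 5.35, 8.78 and 4.31 FPKM, and TIPARP, at 6.10, 7.18 and 5.26, also changed order from library to library. The libraries' FPKM totals differed by up to 1.41 times, so these orders were read within libraries.

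The tables also divide each gene among transcription start sites. For CYP1A1, 96.1% of the counts were assigned to a single start-site group, which held 235, 235 and 232 scaled counts in CTTN 1 to 3 and 75.0, 49.8 and 70.4 in Con 1 to 3, a 3.62-fold difference. AHR was likewise almost all from 1 group (98.6%), with 1121, 1348 and 947 against 1659, 1733 and 1788. For CYP1B1 the split was unsteady. The main group, with 85.5% of the counts, held 1883, 3263 and 596 in CTTN 1 to 3 and 4314, 4987 and 5151 in Con 1 to 3, and a second group whose transcript is shorter held 912, 0.053 and 1774 against 466, 211 and 0.0539. The second group was high in CTTN 1 and CTTN 3, the libraries with fewer fragments from long transcripts, and near 0 in CTTN 2. TIPARP was divided among 3 groups with 49.6%, 32% and 17.6% of its counts. NQO1 was divided among 3 with 39.8%, 37.7% and 22.4%. None of the start-site groups in the table, 0 of 35916 tested (0%), passed at an adjusted p of 0.05 in edgeR, with 3730 at an unadjusted p under 0.05, and limma called 0 of 48344.

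The surroundings of the pathway were described by 9 lists with 125 genes, of which 124 had a row, 16 shared it with other genes, 17 fell under the count filter and 91 were tested. Of these, 4 were higher and 4 lower in the CTTN libraries (8.79%), beside 2.29% of all tested genes called higher and 1.91% called lower. With the length offset 6 were higher and 13 lower (20.9%), beside 19% of all genes. The count of listed genes called was 46 without CTTN 2 and 11 without CTTN 3, 1 without Con 1, and 0 without CTTN 1, Con 2 or Con 3. The calls among all genes moved with it, from 606 to 6953 without CTTN 2 and to between 15 and 30 when CTTN 1 or a Con library was left out. Values of the called genes below are therefore also given with the length offset and from CTTN 2 alone, and a value with neither named is from the fit of all libraries without an offset.

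None of the 11 tested genes of the receptor complex, its chaperones and coactivators passed, with a median log2 difference of -0.081 against 0.011 for all genes. HSP90AA1, the most abundant of them at 731 FPKM in Con, had -0.081 ± 0.082 (SE, adjusted p = 0.494). Likewise none of 6 other bHLH-PAS factors passed (median -0.15, and 0.021 with the offset). EPAS1, the hypoxia-inducible factor that also dimerizes with ARNT, was the most abundant of these at 78.7 FPKM.

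Among further receptor-responsive genes, 2 of the 5 tested were lower and none higher (median -0.72, and -0.65 with the offset), and 8 of the 16 listed were too low to test. ABCG2, the BCRP efflux transporter, was at 155, 142 and 158 scaled counts in CTTN 1 to 3 and at 311, 335 and 334 in Con 1 to 3. All CTTN libraries, CTTN 2 included, lay far below all Con libraries. The log2 difference was -1.11 ± 0.10 (SE, adjusted p = 0.00484), -0.94 with the offset (adjusted p = 0.00201) and -1.21 in CTTN 2 alone. NEDD9, a focal adhesion scaffold, was at 1028, 1197 and 863 against 1809, 1795 and 1859, a difference of -0.82 ± 0.12 (SE, adjusted p = 0.0185) of -0.65 with the offset (adjusted p = 0.000292) and of -0.61 in CTTN 2 alone. SLC7A5, a large neutral amino acid transporter and the most abundant of this list at 233 FPKM, had -0.16 ± 0.12 (adjusted p = 0.356).

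Of the genes that make or clear tryptophan-derived ligands, 1 of 6 tested was higher (median 0.46), and with the offset 2 were higher and 1 lower (median 0.26). KYNU, kynureninase, was at 3429, 3108 and 3527 in CTTN 1 to 3 and at 2332, 2319 and 2181 in Con 1 to 3, a log2 difference of 0.56 ± 0.086 (SE, adjusted p = 0.0198), of 0.64 with the offset and of 0.44 in CTTN 2 alone. TDO2, which opens the pathway, had 0.62 ± 0.14 (adjusted p = 0.0598), and KMO, which takes kynurenine towards quinolinate, -0.39 ± 0.083 (adjusted p = 0.0505). With the offset KMO passed at -0.29 (adjusted p = 0.0416), and KYAT1, a kynurenine aminotransferase, at 0.51 (adjusted p = 0.04). AFMID, the formamidase and most abundant at 43.3 FPKM, had 0.35 ± 0.14 (adjusted p = 0.147). IDO1 was listed at 0 in both groups.

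In the NRF2 battery that shares NQO1, 2 of 19 tested genes were higher and none lower (median 0.067), and with the offset 3 were higher and 1 lower (median 0.0032). AKR1C1 rose from 603 ± 77.2 to 1141 ± 230 scaled counts (SD, n = 3 each), a log2 difference of 0.92 ± 0.17 (SE, adjusted p = 0.0351), and AKR1C2 from 2422 ± 198 to 4231 ± 849, a difference of 0.80 ± 0.15 (SE, adjusted p = 0.0378). With the offset these differences were 0.89 and 0.61, and in CTTN 2 alone 0.60 and 0.52. Both are aldo-keto reductases with nearly identical sequences, so the division of fragments between them is uncertain. NFE2L2, which encodes NRF2, had -0.097 ± 0.075 (adjusted p = 0.374), and the glutathione synthesis genes GCLC and GCLM had -0.018 and -0.15, neither called. FTH1, ferritin heavy chain and the most abundant at 1402 FPKM, had 0.40 ± 0.22 (adjusted p = 0.233), and 0.025 with the offset.

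Among 9 tested genes of P450 electron supply and phase II metabolism, NQO2, the paralog of NQO1, was higher (578 ± 40.7 to 867 ± 79.3 scaled counts, SD, n = 3 each, log2 0.58 ± 0.10 SE, adjusted p = 0.0314, 0.75 with the offset and 0.48 in CTTN 2 alone). EPHX1, the microsomal epoxide hydrolase that works on P450 products, was lower (7771 ± 173 to 5218 ± 662, log2 -0.58 ± 0.11 SE, adjusted p = 0.0345, -0.79 with the offset and -0.76 in CTTN 2 alone). Of 13 other aldehyde dehydrogenases, ALDH1A3, a retinoic acid-forming enzyme, was lower (3296 ± 80.8 to 2300 ± 254, log2 -0.52 ± 0.098 SE, adjusted p = 0.0363, -0.42 with the offset and -0.37 in CTTN 2 alone), and the most abundant of them, ALDH7A1 at 53.2 FPKM, had 0.013. With the offset 2 of the 13 were lower and none higher. None of 13 PARP family relatives of TIPARP passed (median -0.25). With the offset 1 of them was lower (median -0.10), PARP1, the most abundant at 102 FPKM, at -0.17 (adjusted p = 0.021).

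None of the 9 tested neighbours of CYP1A1 on its chromosome passed (median -0.21), beside 2.29% of all genes called higher. With the length offset none was higher and 5 were lower (ARID3B, ULK3, SCAMP2, MPI and FAM219B, between -0.53 and -0.26), beside 1318 of 14433 genes lower in that fit. COX5A, the most abundant at 222 FPKM, had 0.29 ± 0.19 (adjusted p = 0.299), and -0.11 with the offset.

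**Figure D4:**
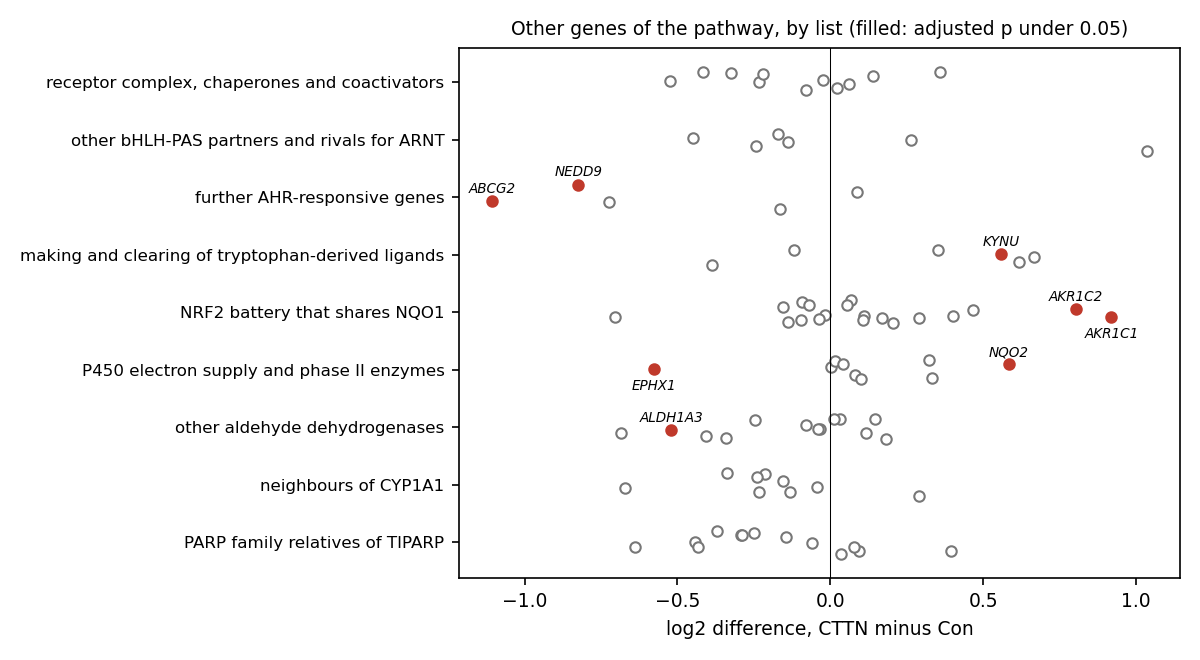
Log2 difference, CTTN minus Con (horizontal axis), of the 91 tested genes in 9 lists (vertical axis, 1 row per list, points spread within a row for legibility). Filled points passed an adjusted p of 0.05 in the fit of all libraries without a length offset and are named, 4 above 0 and 4 below.

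The genes whose level followed CYP1A1 most closely were taken by Pearson's r of log2 CPM over the 6 libraries, among 11816 genes with a mean count of at least 50. They were CDC25B, a cell cycle phosphatase (r = 0.9985), PRAME, a cancer-testis antigen (0.9975), CPA4, a carboxypeptidase (0.9974), STOM, a membrane protein (0.9972), and a row that lists ANXA8L1 (0.9968). Their log2 differences were 0.35, 1.503, 1.507, 0.77 and 1.04. CPA4 was at 3501, 3502 and 3347 scaled counts in CTTN 1 to 3 and at 1302, 1200 and 1136 in Con 1 to 3, and PRAME at 310, 299 and 322 against 112, 113 and 103. In each of the 5, as in CYP1A1, all CTTN libraries lay above all Con libraries, which follows from their choice by likeness to CYP1A1. With 2 groups and 6 points such an r describes little beyond a 2-level pattern with little spread, and none of the 5 is a member of a list above.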

How the data were processed

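Poly(A) RNA of 3 CTTN and 3 Con SKBR3 cultures was prepared with a stranded kit and sequenced as paired ends. The deposited tables hold estimated counts and FPKM per gene, start site and transcript, made by the authors with Cufflinks after STAR alignment. The submitters' notes name bcl2fastq 2.20.0, Trimmomatic and GRCh38, whereas the study's methods name Cutadapt and hg19, and the coordinates in the files are those of GRCh38. Whether counting used strand is not given in the sources used here. The deposited counts were fragments divided by a library scale, since 100% of gene values became whole on multiplying back (tolerance the larger of 0.02 or 0.00001 of the value). For Con, the column names in the samples' descriptions are shifted by 1 against the deposited sample table. Con columns were therefore used as a group and are numbered as in that table.

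Counts were rounded and fitted with edgeR 4.0.16 (TMM, filterByExpr defaults, quasi-likelihood test) in R 4.3.3, with Benjamini-Hochberg adjustment over all 14433 genes tested and a threshold of 0.05. Depth was 34887079 to 41279658 fragments per library. p-values measure the spread between these libraries. Alternatives used DESeq2 1.42.0 and limma 3.58.1 on log2(FPKM + 0.1) and log2(FPKM + 1), where a fold change of a low gene is understated, and genes with a mean FPKM of at least 0.1. The length offset was a loess curve (span 0.5) per library on log2 transcript length, weighted by count, from genes with a mean count of at least 100. Of the fits only edgeR without an offset was run on simulated counts, with equal spread in both groups and no length pattern. The members and lists were chosen with earlier results of these data known. Named were the 8 genes, from each list the called genes (at most 5 with the largest difference) and the most abundant gene with a row of its own (for 1 list not reported here), the 5 genes most like CYP1A1, and CTTN. TDO2, KMO, KYAT1, NFE2L2, GCLC, GCLM, IDO1, PDCD6, CYP1A2, UGT1A1, UGT1A6 and the neighbours of CYP1A1 that passed with the offset were named after their values were seen. Coding-sequence tables were not used here.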

Additional observations from a re-analysis of the deposited data

How the results depend on the processing

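The fit of all 6 libraries called 606 of 14433 genes (4.2%) and 8 of 91 listed genes (8.79%). Of the set's genes tested in rows of their own, CYP1A1 not counted, it called 1, CYP1B1. Counts below are of all genes, of these set genes and of listed genes. Each fit tested its own number of genes, so they are counts and not shares. DESeq2 called 1900, 2 and 16. Without a count filter 593, 2 and 8 were called. limma called 115, 0 and 2 with a pseudocount of 0.1 FPKM and 94, 0 and 2 with 1. The length offset called 2746, 3 and 19, the same without CTTN 3 3214, 4 and 25, and CTTN 2 alone 2128, 4 and 22. With the Con columns that a description names, which leaves out Con 1, 29, 0 and 1 were called. A further limit of 1.5-fold left 462, 1 and 4. Leaving out 1 library gave 15 to 6953 genes, 0 to 3 set genes and 0 to 46 listed genes, the highest counts without CTTN 2, or for the set genes without CTTN 3. Deviations from the group means of libraries with the same number had correlations of 0.0537, 0.211 and -0.338. These cannot decide whether the libraries were paired, since the Con numbers are uncertain and CTTN 1 and CTTN 3 carry the length pattern. A replicate block called 109, 0 and 1, with CYP1B1 at an adjusted p of 0.0532. The cause of these changes was not tested.

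The CYP1A1 log2 difference ranged from 0.97 (limma, pseudocount 1) to 1.64. CYP1B1, AHR and ARNT kept their direction in all alternatives run. Signs turned as follows for values not called in the fit of all 6 libraries. The merged row of AHRR and PDCD6, of which AHRR is a small share, was -0.12 with the length offset, -0.094 with it and without CTTN 3 and -0.065 in CTTN 2 alone, and AHRR split from it was -0.42. TIPARP was 0.0047 and 0.0053 in limma, 0.088 without CTTN 3, 0.042 without Con 2, 0.064 with the offset, 0.13 with it and without CTTN 3, and 0.15 in CTTN 2 alone. NQO1 was -0.025 with library totals only, -0.12 without CTTN 3, -0.13 with the offset and -0.26 in CTTN 2 alone. With the offset and without CTTN 3 it was -0.20, which passed (adjusted p = 0.0079). Leaving out 1 library moved the start-site groups of NQO1 between -0.0087 and 0.33 and between -0.10 and 0.19, the main group of TIPARP between -0.51 and 0.19 (0.029 without Con 2) and that of ARNT between -0.0071 and 0.48.

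Counts limit ALDH3A1, which could not be tested, and CYP1A1 to within its counting interval. In CTTN 1 and CTTN 3 the length pattern and the CTTN condition cannot be told apart for a single long gene without the offset or CTTN 2.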

Other observations

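CYP1A2, the P450 gene next to CYP1A1 in the genome and its fellow target of the receptor, was at 14.5, 4.89 and 9.97 scaled counts in CTTN 1 to 3 and at 3.10, 0.873 and 1.92 in Con 1 to 3. The groups did not overlap, but CTTN 2 lay close to Con 1 and counting error was not taken into account. The gene was under the count filter and was not tested.

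The 9 glucuronosyltransferase genes that include the receptor targets UGT1A1 and UGT1A6 share a row, which was at 6434, 5739 and 6687 scaled counts in CTTN 1 to 3 and at 6148, 5970 and 5731 in Con 1 to 3. The groups overlapped. The row cannot be assigned to a single gene.

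Within CYP1A1, the 2 transcripts with the most counts changed rank between libraries. That of 2608 bases was at 133, 77.6 and 116 scaled counts in CTTN 1 to 3 and that of 2685 bases at 35.4, 107 and 29.2, whereas the sum over the gene varied by less than counting error.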
